A study of Homo sapiens with 15 samples.

Results

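Expression of 10 genes that encode NF-κB subunits and the inhibitors that feed back on them was described across 15 RNA-seq libraries of human breast cancer cells carrying a doxycycline-inducible RBM47 gene. The members were chosen by name, namely NFKB1, NFKB2, RELA, RELB, NFKBIA, NFKBIB, NFKBIE, NFKBIZ, TNFAIP3 and BIRC3, and all 10 were found among the 23368 genes of the count table. RBM47 is an RNA-binding protein, and the study asked which transcripts change as its level is raised. Clones WT6 and WT10 carry FLAG-tagged wild type RBM47, and clone MUT3 carries the frameshift allele RBM47-I281fs, which cuts the protein short. The paper reports little mutant protein although its mRNA was abundant, and takes the protein to be unstable and inactive. RBM47 counts given here are of mRNA. Each clone was grown from 1 transduced cell and was untreated or given doxycycline at 1, 2.5, 5 or 25 ng/ml, with 1 library per clone and dose. The labels call every clone MDA231, a triple negative breast cancer line, whereas the study's methods derive WT6 from the brain metastatic CN34-BrM2 cells and WT10 and MUT3 from the brain metastatic derivative of MDA231. The clone, the transgene and, for WT6, the parental line therefore cannot be told apart. Every cell in the series carries a transgene, so no clone without one enters a comparison.

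NF-κB is a family of dimeric transcription factors held in the cytoplasm of resting cells by IκB proteins. Receptors for TNF, interleukin 1 and microbial products activate a kinase complex that marks IκB for destruction and frees dimers of RELA with the NFKB1 product. A slower route processes the NFKB2 precursor and frees RELB. NF-κB then raises transcription of its own inhibitors and of several of its subunits, so that levels of these mRNAs are used as a readout of the pathway. In breast cancer, basal lines such as MDA231 are known for pathway activity without added cytokine.

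Promoters of the members were searched for the sequence that NF-κB binds. RefSeq promoter windows on GRCh38.p14, running from 250 bases before to 50 bases after each start site, were held for 8 of the 10 members, all but RELB and NFKBIE. The 10-base κB consensus, searched on both strands with overlapping matches counted as 1, was found in 7 of these 8 members (87.5%) and in 1937 of 27305 genes (7.09%). At least 2 non-overlapping matches in a single window were found in 3 of the 8 members (37.5%) and in 100 of all genes (0.366%). The RELA windows held no match to these letters. For each of the 7 members a match is shown here, and for NFKB2 a neighbouring pair, out of the matches found upstream of the starts, to show how alike the letters are. The runs read 5′ to 3′ on the strand of the gene, with the match in capitals.
NFKB1, chr4:102501300-102501329, plus strand: cgacgtcagtGGGAATTTCCagccaggaag
NFKB2, chr10:102394462-102394491, plus strand: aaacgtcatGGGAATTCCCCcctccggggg
NFKB2, chr10:102394490-102394519, plus strand: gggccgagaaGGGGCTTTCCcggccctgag
NFKBIA, chr14:35404811-35404840, minus strand: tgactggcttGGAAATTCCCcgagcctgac
NFKBIB, chr19:38899932-38899961, plus strand: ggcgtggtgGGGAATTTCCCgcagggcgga
NFKBIZ, chr3:101827757-101827786, plus strand: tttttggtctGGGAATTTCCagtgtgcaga
TNFAIP3, chr6:137867188-137867217, plus strand: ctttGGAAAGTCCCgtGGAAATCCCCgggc
BIRC3, chr11:102317275-102317304, plus strand: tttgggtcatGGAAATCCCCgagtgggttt
The TNFAIP3 run holds 2 matches, between 67 and 46 bases before the start. The NFKBIA match lies between 81 and 72 bases before the start, the NFKB1 match between 49 and 40. A match is a description of letters and was not tested as a binding site.

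The libraries held 14955172 to 44771871 reads on genes. A normalized count is a read count divided by its library's size factor, and 3 reads were worth 1.19 to 4.09 normalized counts. No member fell below 117 reads in any library. Between untreated cells and 25 ng/ml, RBM47 went from 258 to 10425 normalized counts in WT6, from 168 to 19877 in WT10 and from 73.8 to 22084 in MUT3. At 1, 2.5 and 5 ng/ml RBM47 was at 92.1, 336 and 949 in MUT3, against 827, 2822 and 8134 in WT10. In WT6 it was at 3137 at 1 ng/ml and was higher at 2.5 ng/ml (8094) than at 5 ng/ml (3966). Equal doses therefore did not give equal RBM47 counts, and slopes compared between clones are slopes on dose. KRT8, KRT18 and VIM, markers of epithelial cancer cells with a mesenchymal state, were each at 8159 normalized counts or more in every library. The epithelial markers KRT19 and EPCAM were lower, at 1061 to 3994 and 136 to 456. The estrogen and progesterone receptor genes ESR1 and PGR reached at most 11.97 and 23.8. ERBB2, which encodes HER2, was at 1018 to 1584, although the labels name a triple negative line. The T cell marker CD3E was at 0 in every library, the leukocyte marker PTPRC reached at most 6.18 and PECAM1 at most 9.19. Other markers listed for cells that a pure culture should lack were present. CD68, which cancer cells also make, was at 2090 to 5307 normalized counts, and the fibroblast marker COL1A1 at 178 to 493. The WT6 libraries at 5 and 25 ng/ml stood apart. Relative to untreated WT6, the median log2 change at these doses was 0.60 and 0.58 in the fifth of transcripts that is shortest, and -0.41 and -0.46 in the fifth that is longest. The same medians lay between -0.08 and 0.06 in the other treated libraries. The WT6 slopes of the members called there are therefore also given with each library's trends on transcript length and GC content taken out, and without these 2 libraries.

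RELA and NFKBIA were the most abundant members per transcript length, and NFKBIZ and TNFAIP3 the least in the MDA231 clones. Levels between genes were compared as RPKM, reads scaled to transcript length and to the library's reads on genes. RELA, which encodes the main activating subunit, had a median of 54.4 RPKM over the 5 WT6 libraries, 61.2 over WT10 and 59.6 over MUT3. NFKBIA, which encodes the prototype IκB, had medians of 62.5, 52.2 and 44.04 RPKM in the same order. These 2 genes could be separated by their ranges in MUT3 alone. NFKBIZ, a nuclear IκB, had the lowest median in WT6 (2.301 RPKM), and TNFAIP3, a deubiquitinating enzyme that shuts off signals from TNF receptors, had the lowest in WT10 (4.16 RPKM) and MUT3 (2.51 RPKM). The order differed most for NFKBIE, another cytoplasmic IκB, at 5.93 RPKM in WT6 against 43.97 in WT10 and 35.9 in MUT3. It was ranked 9 of 10 in WT6, 3 in WT10 and 5 in MUT3. BIRC3, a ubiquitin ligase bound to TNF receptor complexes, was ranked 4 in WT6 (43.3 RPKM) and 8 in both other clones (17.6 and 20.7 RPKM). Among neighbours in the middle of the order, from NFKBIE to RELB in WT10 and from NFKBIA to NFKB2 in MUT3, the ranges over the 5 libraries overlapped at each step.

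**Figure D1:**
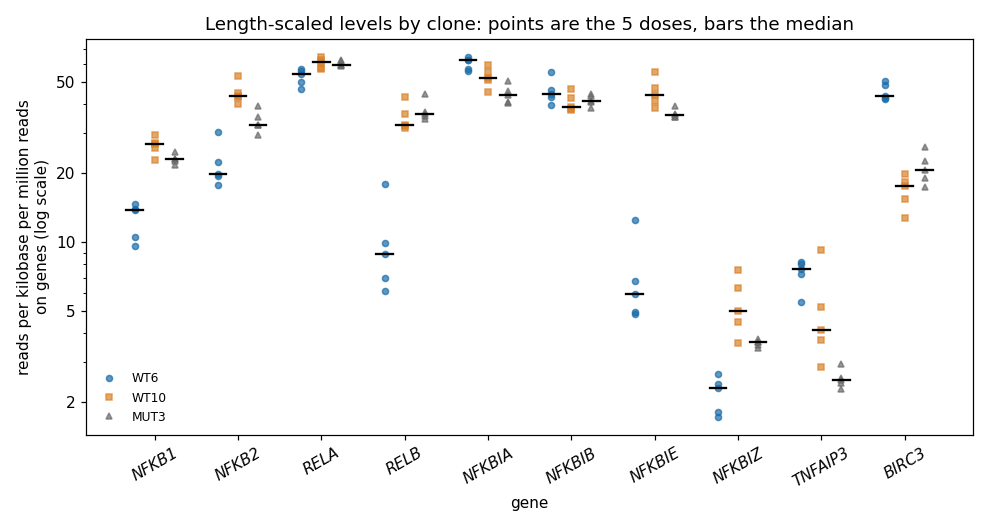
Level of each gene in RPKM (vertical axis, log scale) by gene (horizontal axis), with WT6 as circles, WT10 as squares and MUT3 as triangles; each point is 1 of the 5 dose libraries of a clone and each bar their median. RELA and NFKBIB sit close together in the 3 clones, whereas all WT6 points of RELB and NFKBIE lie below, and all WT6 points of BIRC3 above, those of the other clones.

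With rising doxycycline, 5 of the 10 members rose in each wild type clone. None was called in MUT3, where the fit called no gene at all, not even the induced RBM47. The change was a slope of log2(normalized count + 1) on log2(dose + 1), so that a slope of 1 is a doubling per unit, and was tested in a single limma fit over 12644 genes with Benjamini-Hochberg adjustment. NFKB2, RELB, NFKBIB, NFKBIE and NFKBIZ rose in WT6, where 29.2% of all genes tested rose, and NFKB1 fell, where 28.3% of genes fell. RELB, NFKBIE, NFKBIZ, TNFAIP3 and BIRC3 rose in WT10, against 10.2% of genes, and 0 members fell, against 9.83%. RELB, NFKBIE and NFKBIZ were thus called in both wild type clones. The median slope of the 10 members was 0.08 in WT6 and 0.08 in WT10, beside 0.0053 and -0.0027 over all genes tested. In MUT3 limma called 0% of genes as higher and 0% as lower, so 0 members could be counted there, although the median member slope was 0.05 and 4 members (NFKB2, RELB, NFKBIA and BIRC3) had an unadjusted p under 0.05, as had 295 of all genes. RBM47 itself missed the threshold in MUT3 (limma adjusted p = 0.0517), although it went from 73.8 to 22084 normalized counts there. The lack of calls in MUT3 therefore does not show that the members were unchanged in that clone. On the recovered reads edgeR and DESeq2 also called 0 members in MUT3 and 0 falling members in WT10. Fitted on its own 5 libraries with limma, MUT3 gave 4 rising members, and 115 rising genes (0.910%). In the single fit each p measures the spread of libraries around the dose lines, pooled over all clones, not the spread between cultures or clones. A clone's p therefore also depends on the libraries of the other clones. In bulk RNA a change per cell and a change in the share of cells that express a gene cannot be told apart.

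**Figure D2:**
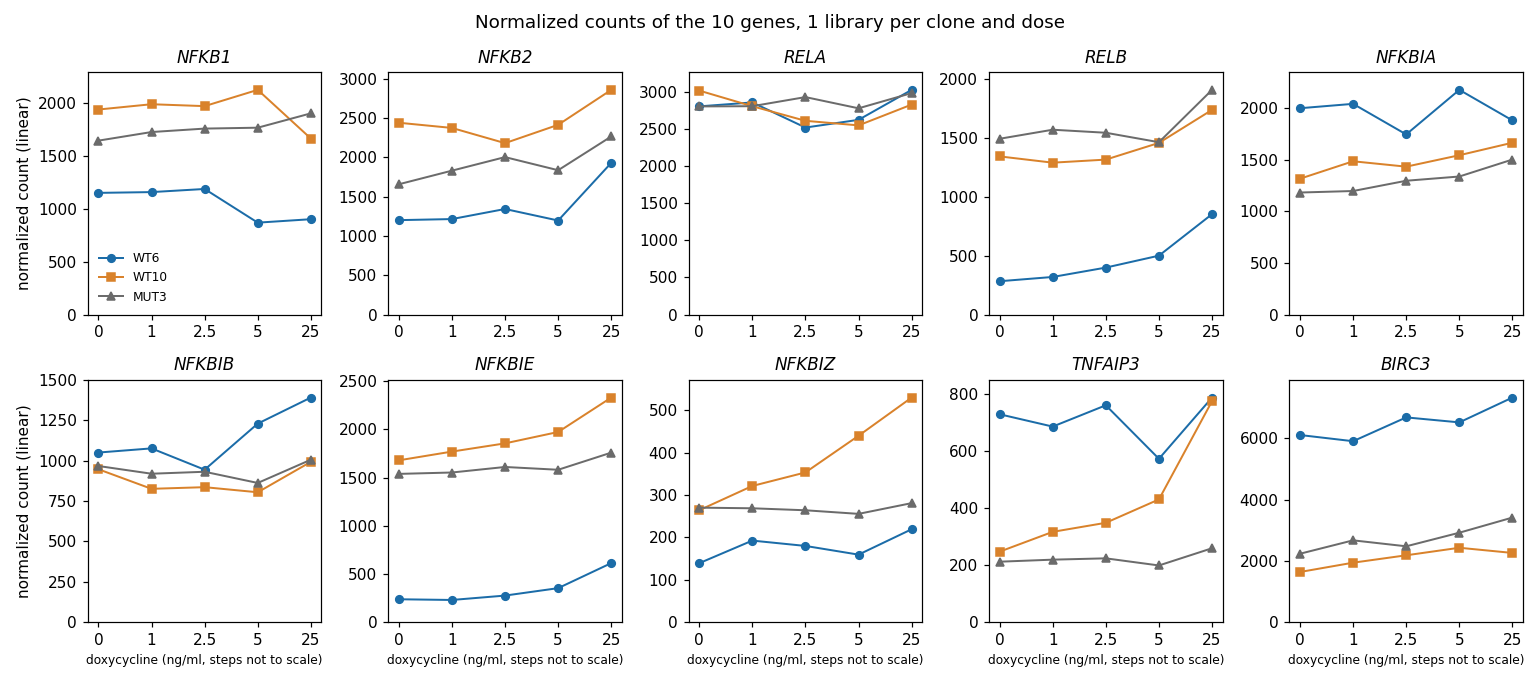
Normalized count (vertical axes, linear from 0) of each gene at each doxycycline dose (horizontal axes, ng/ml in equal steps) in WT6, WT10 and MUT3, with 1 library per point. RELB and NFKBIE climb steeply from a low start in WT6, and TNFAIP3 and NFKBIZ climb in WT10, where TNFAIP3 goes from 248 to 776.

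Fewer members were called without the 25 ng/ml libraries. In WT6 2 rose (RELB and NFKBIE), near the share of all genes that then rose (19.1%). In WT10 0 were called, where 14 of all genes then rose. The WT10 slopes themselves did not all shrink. That of BIRC3 went from 0.10 to 0.22, NFKBIZ from 0.21 to 0.27, TNFAIP3 from 0.35 to 0.30, NFKBIE from 0.10 to 0.09 and RELB from 0.09 to 0.04. Without the WT6 libraries at 5 and 25 ng/ml, a choice made after the data were seen, 0 members were called in WT6, where 130 of all genes rose and 52 fell. In WT10 6 members then rose, NFKBIA (adjusted p = 0.0114) beside the same 5, against 18.7% of all genes. In the order 0 to 25 ng/ml, the library at 25 ng/ml was the highest of its clone for 10 of 10 members in MUT3, 8 in WT6 and 7 in WT10, beside 26.2%, 30.01% and 34.8% of all genes tested. In MUT3 this included the 4 members with an unadjusted p under 0.05 and 6 others whose slopes lay between 0.0095 and 0.05.

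Among the subunits, RELB had the steepest slope in both wild type clones, and NFKB2 in MUT3. RELB, the partner of the processed NFKB2 product, lies at chr19:45504719-45541450 (hg19, plus strand) and overlaps no other annotated gene. It gave 284, 320, 400, 501 and 855 normalized counts in WT6 from 0 to 25 ng/ml. Each dose was higher than the one before, and the count at 25 ng/ml was 3.01 times that of untreated cells (95% counting interval 2.61 to 3.49). The slope was 0.35 (standard error 0.03, limma adjusted p = 3.14e-06). With the length and GC trends removed the slope was 0.26 (adjusted p = 1.88e-06). Without the WT6 libraries at 5 and 25 ng/ml it was 0.27 (adjusted p = 0.175). In WT10 RELB gave 1346, 1292, 1318, 1461 and 1742 normalized counts, flat up to 2.5 ng/ml and higher after it, with a slope of 0.09 (standard error 0.03, adjusted p = 0.0314). The WT10 call was lost without the 25 ng/ml library, where the slope was 0.04 (adjusted p = 0.727), or the 1 ng/ml library, where it was 0.08 (adjusted p = 0.0836). In MUT3 the 5 values were 1496, 1573, 1547, 1466 and 1912, and only the library at 25 ng/ml stood above the rest.

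NFKB2, which encodes the precursor of the slower route, gave 1201, 1215, 1343, 1196 and 1930 normalized counts in WT6. The libraries up to 5 ng/ml lay between 1196 and 1343, and the library at 25 ng/ml above them all. The slope of 0.14 (standard error 0.04, limma adjusted p = 0.00338) became 0.02 (adjusted p = 0.834) without the 25 ng/ml library. It was 0.13 with the length and GC trends removed (adjusted p = 0.000161) and 0.09 without WT6 at 5 and 25 ng/ml (adjusted p = 0.609). NFKB2 was also highest at 25 ng/ml in WT10, at 2858 against 2180 to 2440 at lower doses, and in MUT3, at 2265 against 1657 to 2003, but neither slope was called (0.05, adjusted p = 0.280, and 0.09, adjusted p = 1.00). With the length and GC trends removed, the WT10 slope of NFKB2 was 0.08 (adjusted p = 0.00676). In that fit 7 members rose in WT10, where 16.6% of all genes rose and 18.9% fell.

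NFKB1, which encodes the partner of RELA, gave 1151, 1158 and 1188 normalized counts in WT6 up to 2.5 ng/ml and then 869 and 902. The fall was a slope of -0.09 (standard error 0.03, limma adjusted p = 0.0253). The lower values are those of the libraries in which long transcripts read low, and the NFKB1 transcript has 4055 bases. The slope was -0.04 (adjusted p = 0.136) with the trends removed and 0.02 (adjusted p = 0.898) without these libraries, and the call was also lost without untreated WT6 (adjusted p = 0.0511), WT6 at 1 ng/ml (0.0553) or WT6 at 25 ng/ml (0.105). WT10 held 1939, 1989, 1971 and 2125 up to 5 ng/ml and 1664 at 25 ng/ml, and MUT3 ran from 1644 untreated to 1902 at 25 ng/ml, upward at each of the 4 steps. RELA stayed within 2520 to 3028 normalized counts in WT6, 2549 to 3018 in WT10 and 2779 to 2985 in MUT3. The 3 ranges overlapped, and the RELA slopes were 0.02, -0.02 and 0.02 with 95% intervals inside -0.08 to 0.08.

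Of the IκB genes, NFKBIE and NFKBIZ rose in both wild type clones. NFKBIE lies at chr6:44225903-44233525 (hg19, minus strand), where no other gene is annotated, and gave 239, 232, 277, 354 and 614 normalized counts in WT6, a ratio of 2.57 between 25 ng/ml and untreated cells (counting interval 2.19 to 3.03). The slope was 0.32 (standard error 0.03, limma adjusted p = 5.72e-06) and 0.26 with the trends removed (adjusted p = 6.17e-06). Without the WT6 libraries at 5 and 25 ng/ml it was 0.11 (adjusted p = 0.522). In WT10 NFKBIE rose at every step, through 1680, 1771, 1856, 1974 and 2331 normalized counts. Its slope there was 0.10 (standard error 0.03, adjusted p = 0.0111) and kept its size without the 25 ng/ml library (0.09, adjusted p = 0.376). MUT3 values lay between 1539 and 1760, with a slope of 0.04 (95% interval -0.01 to 0.10).

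NFKBIZ, at chr3:101546835-101579866 (hg19, plus strand), gave 264, 321, 353, 439 and 529 normalized counts in WT10. It rose at every step, was already 1.22 times untreated at 1 ng/ml (counting interval 1.03 to 1.44) and reached 2.01 times at 25 ng/ml (1.72 to 2.35). The slope was 0.21 (standard error 0.03, limma adjusted p = 0.000632), 0.22 with the trends removed, and 0.27 without the 25 ng/ml library (adjusted p = 0.108). In WT6 the values of 139, 192, 180, 159 and 219 had no steady order, and the slope of 0.10 (standard error 0.04, adjusted p = 0.0392) lost its call without WT6 at 25 ng/ml (adjusted p = 0.537) or untreated WT6 (0.312), with a slope of 0.06 in each fit, and by a narrow margin without MUT3 at 1 (0.0505) or 2.5 ng/ml (0.0504) or WT10 at 1 ng/ml (0.0512). In MUT3 NFKBIZ lay between 255 and 281, with a slope of 0.0095 (95% interval -0.07 to 0.09). The WT6 slope was 0.15 with the trends removed (adjusted p = 0.00186) and 0.20 without WT6 at 5 and 25 ng/ml (adjusted p = 0.364). NFKBIZ shares part of its locus with NXPE3 on the same strand.

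NFKBIB and NFKBIA gave results in WT6 that changed once the length and GC trends, fitted together, were taken out. NFKBIB, an IκB that is degraded and made again slowly, gave 1050, 1076, 944, 1229 and 1390 normalized counts in WT6, a slope of 0.10 (standard error 0.03, limma adjusted p = 0.0278). Its transcript is the shortest of the members, at 1192 bases, with a GC content of 64.6%. With the trends removed the slope was -0.07 (adjusted p = 0.0013), and without the WT6 libraries at 5 and 25 ng/ml it was -0.08 (adjusted p = 0.669). Without WT6 at 25 ng/ml alone it was 0.05 (adjusted p = 0.523). NFKBIB was at 804 to 993 in WT10 and 862 to 1006 in MUT3, without a call. Its locus overlaps SIRT2 on the other strand. NFKBIA gave 1998, 2040, 1744, 2176 and 1880 in WT6, with no slope (-0.01, adjusted p = 0.711). Once the trends were removed its slope was -0.13 (adjusted p = 3.39e-05). In the MDA231 clones NFKBIA moved gently upward, from 1316 to 1664 in WT10 and from 1182 to 1501 in MUT3. These slopes of 0.07 and 0.08 were not called (adjusted p = 0.102 and 1.00), and the 95% intervals were 0.0078 to 0.12 and 0.02 to 0.14. The WT10 slope was called with the trends removed (0.05, adjusted p = 0.0302), in WT10 alone (adjusted p = 0.0456) and without WT6 at 5 ng/ml (adjusted p = 0.0271), and the MUT3 slope in MUT3 alone (adjusted p = 0.0064).

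**Figure D3:**
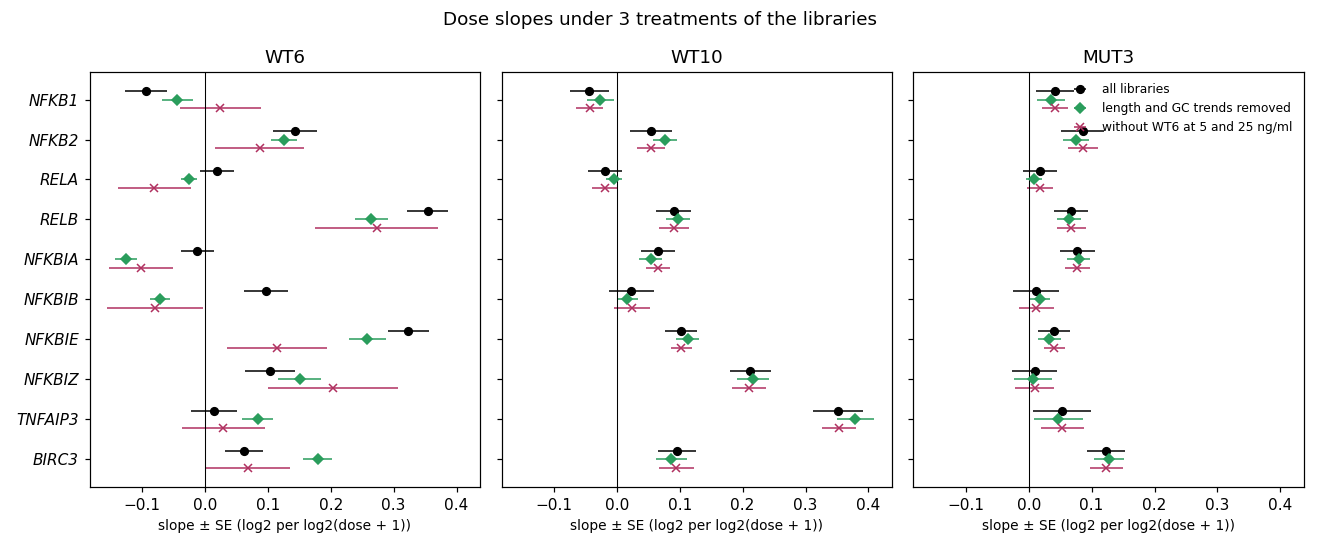
Dose slopes of the genes (vertical axis) with standard errors, in log2(normalized count + 1) per unit of log2(dose + 1) (horizontal axes), in each clone with all libraries (circles), with length and GC trends removed (diamonds) and without WT6 at 5 and 25 ng/ml (crosses). In WT6 the NFKBIB slope goes from 0.10 to -0.07 with the trends removed, whereas the largest move of a slope is 0.03 in WT10 and 0.01 in MUT3.

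TNFAIP3, at chr6:138188351-138204451 (hg19, plus strand), had the steepest slope of the members in WT10. It gave 248, 317, 349, 431 and 776 normalized counts, a rise at every step. The ratio to untreated cells was 1.28 at 1 ng/ml (counting interval 1.079 to 1.52) and 3.13 at 25 ng/ml (2.70 to 3.65). The slope was 0.35 (standard error 0.04, limma adjusted p = 6.11e-05) and was 0.30 without the 25 ng/ml library, where the adjusted p was 0.136. In WT6 TNFAIP3 was already at 730 normalized counts without doxycycline, and the other values of 687, 761, 574 and 789 lay around it. At 25 ng/ml the wild type clones were thus side by side, at 789 and 776. MUT3 stayed low, at 213, 220, 224, 199 and 260, below every WT6 value. TNFAIP3 overlaps WAKMAR2 on the other strand. Its WT6 slope of 0.01 (adjusted p = 0.756) was 0.08 with the trends removed (adjusted p = 0.01).

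BIRC3 had its steepest slope in MUT3. In WT6 it gave 6102, 5900, 6676, 6514 and 7323 normalized counts, in WT10 1639, 1942, 2183, 2429 and 2260, and in MUT3 2233, 2670, 2476, 2919 and 3413. The ratio of 25 ng/ml to untreated cells was 1.20 (counting interval 1.16 to 1.25), 1.38 (1.29 to 1.47) and 1.53 (1.44 to 1.62) in the same order. The slopes were 0.06, 0.10 and 0.12, of which limma called that of WT10 alone (adjusted p = 0.0391, against 0.0971 in WT6 and 0.677 in MUT3). The WT6 slope was called without WT6 at 5 ng/ml (0.0476) or WT10 at 25 ng/ml (0.0318). The WT10 call was lost without any of 7 libraries, with adjusted p from 0.051 without WT10 at 5 ng/ml to 0.375 without untreated WT10, the others being WT10 at 1 and 25 ng/ml and MUT3 at 0, 5 and 25 ng/ml. The WT10 slope was 0.05 without untreated WT10 and 0.22 without WT10 at 25 ng/ml. The mean wild type slope did not differ by the test from that of MUT3 (difference -0.04, 95% interval -0.12 to 0.03, adjusted p = 0.382). BIRC3 has the longest transcript of the members, 6877 bases, and its WT6 slope was 0.18 with the trends removed (adjusted p = 1.72e-05).

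The mean of the WT6 and WT10 slopes was set against the MUT3 slope to ask which changes went with the wild type protein. This mean was higher than the MUT3 slope for NFKBIE, RELB and NFKBIZ, as for 10.1% of all genes. It was lower for NFKB1, as for 14.6% of genes. For RELB the slope was 0.35 in WT6 but 0.09 in WT10, beside 0.07 in MUT3. The WT10 slopes alone were not tested against those of MUT3. The difference of the mean from MUT3 was 0.17 for NFKBIE (standard error 0.03, limma adjusted p = 0.00297), 0.15 for RELB (0.03, adjusted p = 0.00667) and 0.15 for NFKBIZ (0.04, adjusted p = 0.0264). It was -0.11 for NFKB1 (0.04, adjusted p = 0.0465), a call lost without WT6 at 0 or 1 ng/ml, WT10 at 1, 2.5 or 25 ng/ml or any MUT3 library (adjusted p from 0.0522 to 0.377). TNFAIP3 missed the threshold (0.13, 95% interval 0.02 to 0.24, adjusted p = 0.0864). It passed with the trends removed (0.18, adjusted p = 0.00466) or without WT6 at 5 ng/ml (adjusted p = 0.0106). Without the MUT3 library at 25 ng/ml, 0 members were called as higher (0.19, adjusted p = 0.14 for NFKBIE, 0.23, adjusted p = 0.0995 for RELB and 0.19, adjusted p = 0.21 for NFKBIZ), and 2 of all genes were. RELB also missed it without WT10 at 25 ng/ml (0.0547) or untreated MUT3 (0.0536), and NFKBIZ without WT6 at 25 ng/ml (0.094), untreated WT6 (0.0588), untreated MUT3 (0.12) or MUT3 at 1 ng/ml (0.0504). Without the WT6 libraries at 5 and 25 ng/ml, NFKBIZ alone of the members was called (0.20, adjusted p = 0.0459). The remaining members, NFKB2, RELA, NFKBIA, NFKBIB and BIRC3, were not called, with differences between -0.05 and 0.05. With the trends removed NFKBIA was called as lower (-0.11, adjusted p = 0.00141) and NFKB1 was not (-0.07, adjusted p = 0.0556).

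The wild type clones differed from each other in the size of the slope for RELB, NFKBIE and TNFAIP3. The first 2 were called as rising in both clones, and TNFAIP3 in WT10 alone. RELB and NFKBIE had the higher slope in WT6, where 7.28% of genes did, and TNFAIP3 in WT10, where 7.09% did. WT6 minus WT10 was 0.26 for RELB (standard error 0.04, limma adjusted p = 0.00636), 0.22 for NFKBIE (0.04, adjusted p = 0.011) and -0.34 for TNFAIP3 (0.05, adjusted p = 0.00636). The RELB and NFKBIE differences missed the threshold without WT6 at 25 ng/ml (0.23, adjusted p = 0.0704, and 0.13, adjusted p = 0.179), NFKBIE also without untreated WT10 (0.0571), and all 3 held with the trends removed (0.17, 0.15 and -0.30). Without the WT6 libraries at 5 and 25 ng/ml the TNFAIP3 difference was -0.32 (adjusted p = 0.134), that of RELB 0.18 (0.851) and that of NFKBIE 0.01 (0.993). RELB and NFKBIE started low in WT6 and TNFAIP3 started low in WT10, so for these 3 the larger slope lay in the clone with the lower start. This did not hold for every member. NFKBIZ started at 139 normalized counts in WT6 and 264 in WT10, with slopes of 0.10 and 0.21, a difference that was not called (limma adjusted p = 0.148). Start and slope come from the same libraries, so they are not independent.

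Without doxycycline the clones already differed in 8 of the 10 members. The fitted log2 level at dose 0 in WT6, minus the mean of WT10 and MUT3, was -2.96 for NFKBIE (standard error 0.10, limma adjusted p = 3.4e-12) and -2.34 for RELB (0.10, adjusted p = 3.67e-11). NFKB2 (-0.82), NFKBIZ (-0.82) and NFKB1 (-0.63) were lower as well, making 5 lower members against 30.7% of all genes. TNFAIP3 (1.63), BIRC3 (1.55) and NFKBIA (0.67) were the 3 higher members, against 33.7% of genes. RELA (-0.07, 95% interval -0.25 to 0.12) and NFKBIB (0.15, -0.08 to 0.39) were not called. For BIRC3 the untreated counts were 6102 in WT6 against 1639 and 2233, and for NFKBIE 239 against 1680 and 1539. Over the 5 doses, no WT6 value of RELB, NFKBIE, NFKB1 or NFKBIZ reached the lowest value of the other clones. The sister clones were closer, with NFKB2 higher in WT10 than in MUT3 by 0.42 (adjusted p = 0.0194), where 14.3% of genes were, and BIRC3 lower (-0.33, adjusted p = 0.0365), where 13.9% were. Both calls were lost without WT10 at 0 or 1 ng/ml or MUT3 at 0 or 25 ng/ml, and that of BIRC3 also without MUT3 at 1 or 5 ng/ml. A single clone stands for each arm, so these are differences between the libraries of these clones.

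The members fell into no single pattern across libraries. Correlations of log2(normalized count + 1), centred within each clone over the 15 libraries, exceeded 0.8 in 4 of 45 pairs, with a median r of 0.31. RELB and NFKBIE were the closest (r = 0.97), and NFKBIE was ranked 4 among 12643 genes by likeness to RELB. The correlation was 0.89 over the 10 libraries of WT10 and MUT3 alone. NFKBIZ and TNFAIP3 followed (0.84), at 0.96 in WT10, 0.88 in MUT3 and 0.41 in WT6, then NFKB2 with RELB (0.83) and NFKB2 with NFKBIE (0.81). NFKB1 and NFKBIB were the most opposed (-0.78), the former with a long and the latter with a short transcript. The libraries of a pair share their dose, depth and length trend, so these values are descriptions. By the same measure the genes most like RELB were NECAP2 (0.98), TPGS1 (0.98) and TNFAIP1 (0.98), those most like NFKBIE were MED29, MRPL49 and TRIML2 (0.98 each), and those most like TNFAIP3 were RETSAT (0.94), LOC100329109 (0.93) and ICAM1 (0.91), an adhesion molecule and NF-κB target. The closest gene was PTPN9 for NFKB2 (0.96), HOMER1 for NFKB1 (0.96), FAM213B for RELA (0.95), TMED9 for NFKBIB (0.97), DNER for NFKBIZ (0.93), DDR2 for BIRC3 (0.92) and BPGM for NFKBIA (0.83).

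Other genes of the pathway were counted from fixed lists. Of 18 tested known target genes of 24 listed (CCL2, CCL20, TNF, LTB, VCAM1 and MMP9 were too low to test), 10 rose and 3 fell in WT6, where 29.2% of all genes rose and 28.3% fell, and 8 rose and 0 fell in WT10, against 10.2% and 9.83%. With length and GC trends removed the counts were 9 and 4 in WT6, where 29.2% of all genes then rose and 29.3% fell. In WT10 the counts were 9 and 2, where 16.6% of all genes then rose and 18.9% fell. With all libraries and no trend removed, the median slope of the 18 target genes was 0.18 in WT6 and 0.10 in WT10. The mean wild type slope was above that of MUT3 for 6 of them and below it for 3, against 10.1% and 14.6% of genes. The chemokine gene CXCL1 went from 54.8 normalized counts untreated to 1041 at 25 ng/ml in WT6 and from 121 to 1798 in WT10, whereas it lay between 251 and 357 in MUT3. The slope was 1.01 in WT6 and 0.94 in WT10, and the difference from MUT3 was 0.92 (limma adjusted p = 0.000355). IL8 reached 1354 in WT6 and 4198 in WT10 at 25 ng/ml, against at most 420 in MUT3. CFLAR, an inhibitor of death receptor signals, rose in both wild type clones with slopes of 0.15 and 0.13. PLAU, the urokinase gene, fell in WT6 (-0.09, adjusted p = 0.0263) and was not called in WT10 (0.02). Its difference from MUT3 was -0.14 (adjusted p = 0.00963). In MUT3 PLAU went from 3587 to 5308 normalized counts, an upward slope of 0.10 that was not called (adjusted p = 0.754) but enters this difference. Without WT6 at 5 and 25 ng/ml, 0 genes of this or any other list were called in WT6, where the CXCL1 slope was 0.28 (adjusted p = 0.682). The list was drawn up with earlier results of these data known.

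Of 11 other negative regulators, 3 rose and 1 fell in WT6, a rising share near the 29.2% of all genes (28.3% fell), and 5 rose and 0 fell in WT10, against 10.2% and 9.83%. With the trends removed, 6 rose and 2 fell in WT6, against 29.2% and 29.3% of all genes. ZC3H12A, an RNase that cuts cytokine mRNAs, rose from 503 to 967 normalized counts in WT6 (slope 0.20) and from 241 to 706 in WT10 (slope 0.34), against 143 to 179 in MUT3, and the difference from MUT3 was 0.20 (limma adjusted p = 0.00949). Of 10 upstream kinases, 1 rose and 5 fell in WT6, against the same 29.2% and 28.3% of genes, and 2 rose and 1 fell in WT10, of which the falling share is that of all genes. With the trends removed, 3 rose and 4 fell in WT6, near the shares of all genes (29.2% and 29.3%). IKBKE, an inducible kinase related to the IκB kinases, rose in both, from 242 to 516 and from 647 to 1373 normalized counts, with slopes of 0.24 and 0.22. MAP3K7, the kinase that links receptors to the IκB kinase complex, fell in both, from 862 to 265 in WT6 and from 722 to 420 in WT10, and stayed between 857 and 925 in MUT3. The difference from MUT3 was 0.15 for IKBKE (adjusted p = 0.0128) and -0.26 for MAP3K7 (adjusted p = 0.00505).

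Of 23 tested receptors and adaptors of 24 listed (CD40 was too low), 6 rose and 6 fell in WT6, near the shares of all genes (29.2% and 28.3%), and 4 rose and 2 fell in WT10 (10.2% and 9.83%). With the trends removed, 9 rose and 6 fell in WT6, against 29.2% and 29.3% of all genes. TRADD, the adaptor of TNF receptors, went from 219 to 625 normalized counts in WT6 (slope 0.36, limma adjusted p = 1.4e-05) and had a slope of 0.11 (adjusted p = 0.053) in WT10. The WT6 slope of TRADD was 0.21 with the trends removed. TLR3, a receptor for double-stranded RNA, rose in both (0.26 and 0.17) but from 12.1 counts in WT6 and 142 in WT10. BIRC2, the neighbour and close relative of BIRC3, fell from 5303 to 2407 counts in WT6 (-0.25, adjusted p = 7.53e-05) with no call in WT10 (-0.03). The BIRC2 slope in WT6 was -0.20 with the trends removed and -0.04 (adjusted p = 0.811) without WT6 at 5 and 25 ng/ml. IL1RAP, a chain of the interleukin 1 receptor, fell in WT6 (-0.13, adjusted p = 0.0138), a call lost with the trends removed (-0.05, adjusted p = 0.0784). Of the 3 remaining subunit and IκB genes, REL fell in WT6 from 34.0 to 13.7 normalized counts (-0.27, adjusted p = 0.0359), also lost with the trends removed (-0.15, adjusted p = 0.217), and BCL3 and NFKBID were not called. None of these lists had a call in MUT3, where limma called 0 of all genes.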

How the data were processed

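Poly(A)-selected RNA was sequenced as paired-end reads. The authors mapped reads to hg19 with STAR and counted them per gene with HTSeq 0.5.4 at default settings, and the annotation and the strand setting are not given in the sources used here. The deposited values are a normalized signal, the read count of a gene divided by the DESeq size factor of the library. Whole reads were recovered from 100% of the values, within a tolerance of 0.01 of a read. Pairs assigned to no gene made up 56.5% to 59.6% of counted pairs and were left out of library sizes and tests.

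Genes whose normalized counts averaged 10 or more in every clone (12644) were fitted with limma 3.58.1 (R 4.3.3) on log2(normalized count + 1), with precision weights (vooma), an intercept and a dose slope per clone (6 coefficients, 9 residual degrees of freedom) and Benjamini-Hochberg adjustment over all genes at 0.05. The fit was tested on simulated data. The labels give 1 library per clone and dose, so p-values measure spread between libraries that may be technical. Counting intervals (exact binomial, 95%) cover counting error only. edgeR 4.0.16 and DESeq2 1.42.0 on the recovered reads, TMM scaling, a pseudocount of 5, no filter, no weights, other covariates, leave-one-out fits and removal of length and GC trends (splines with 4 degrees of freedom, 95.8% of tested genes annotated) were alternatives. Gene loci, lengths and GC came from GENCODE 44 on hg19, which matched 92.0% of symbols, and promoter sequences from RefSeq on GRCh38.p14.

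The members and lists were chosen with earlier results of these data known. Named genes were all members, RBM47, from each other list at most 4 genes with the lowest p for the mean wild type slope minus MUT3 among those called (with none, the lowest p for WT6), and for each member the 3 genes of highest correlation.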

Additional observations from a re-analysis of the deposited data

Results flagged for a closer look

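Dose slopes that differed between clones by limma's test of the difference itself (Benjamini-Hochberg adjusted p under 0.05 over 12644 genes) are given here as values. The mean wild type slope minus the MUT3 slope was 0.1722 for NFKBIE, 0.1543 for RELB, 0.1482 for NFKBIZ and -0.1107 for NFKB1. The WT6 slope minus the WT10 slope was 0.2637 for RELB, 0.2214 for NFKBIE and -0.3365 for TNFAIP3. With 1 library per clone and dose, no group was large enough for a search for outlying samples.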

How the results depend on the processing

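The counts of 3 higher and 5 lower members in WT6 at dose 0 were the same in each leave-one-out fit. They were also the same in each other fit that gave them, with these exceptions. With dose in ng/ml, with length and GC trends removed and without WT6 at 5 and 25 ng/ml, 4 were higher. Of all genes, 36.2%, 38.5% and 35.8% were higher in these fits, in the same order. The dose 0 counts were not computed with log2 RBM47 or for each clone alone. Other counts of called members moved. Of lower members for the wild type mean minus MUT3 (1 with limma), 0 were called with edgeR, TMM scaling, no filter or no weights. For WT10 minus MUT3 levels, DESeq2 called 2 higher members and TMM scaling 0 lower ones. With dose in ng/ml, 0 fell in WT6 (23.4% of all genes did) and 3 rose in WT10 (8.31%). In that fit 1 was higher (5.10%) and 0 lower (7.65%) for the wild type mean minus MUT3, and 3 were higher in WT10 than MUT3 (16.9%). With log2 RBM47 count in place of dose, 0 rose and 0 fell in WT6, where 2 of all genes rose and 0 fell. In WT10 2 rose, where 76 of all genes did (0.60%). Between slopes 0 members differed in either direction, and 0 of all genes did, so these counts say little about the members. Each clone alone gave 3 rising and 0 falling members in WT6 (15.7% and 15.5% of all genes) and 4 rising in MUT3 (0.910%). With length and GC trends removed, 2 fell in WT6, 3 were lower in WT6 minus WT10, and 3 were higher and 2 lower in WT10 than MUT3. Without 25 ng/ml, 2 rose and 0 fell in WT6 (19.1% and 18.0% of all genes), and 0 rose in WT10, where 14 of all genes did. Between slopes 0 members differed, where at most 7 of all genes did in a direction. Without WT6 at 5 and 25 ng/ml (added after the data were seen), 0 rose and 0 fell in WT6 (1.03% and 0.411% of all genes). In that fit 1 was higher (5.28%) and 0 lower (7.33%) for the wild type mean minus MUT3. Between WT6 and WT10 0 members differed, where 3 of all genes did in each direction, and 3 members were higher in WT10 than MUT3 (22.3%).

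Over the 15 leave-one-out fits the counts ran from 2 to 6 rising and 0 to 1 falling in WT6, 0 to 6 rising in WT10, 0 to 4 higher and 0 to 1 lower for the wild type mean minus MUT3, 0 to 3 higher and 1 to 2 lower for WT6 minus WT10, and 0 to 3 higher and 0 to 1 lower for WT10 minus MUT3 levels. The reversed slopes were NFKBIB in WT6 with length and GC trends removed (-0.0715) and without WT6 at 5 and 25 ng/ml (-0.0792), NFKBIB in WT6 minus WT10 with the trends removed (-0.0880) and NFKB1 in WT6 without those libraries (0.0246). The cause was not tested. No paired analysis was possible because each clone and dose has 1 library and the replicate number 1 pairs nothing.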
